A study of Drosophila melanogaster with 8 samples.

Results

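Polycomb and trithorax group genes encode the chromatin proteins that keep developmental genes, the Hox genes among them, off or on through cell divisions. Polycomb proteins work in complexes: PRC2 methylates histone H3, PRC1 reads that mark and ubiquitinates histone H2A, PhoRC brings both to DNA, and PR-DUB removes the ubiquitin. Trithorax group proteins oppose them through other histone methyltransferases and through the Brahma complexes, which move nucleosomes with the ATPase Brahma. In imaginal discs, the larval epithelia that form adult structures, these genes are known for holding a disc to its fate, and lowered Polycomb function is known to let discs change identity.

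The genes described here are 34 Polycomb, trithorax and Brahma genes, each matched by current symbol and read from its brightest probe set, judged by mean signal. Of the 34 genes, 27 had a probe set that names them alone, and all 27 passed the filter on low signals, beside 8024 genes and 10205 probe sets tested in the whole series. The 7 others, ph-p, ph-d, Su(z)2, pho, calypso, ash1 and Bap55, were not analysed here. The name of a probe set tells how specific it is meant to be. Of the 27, 16 end in _at, 5 in _a_at (transcripts of 1 gene) and 6 in _s_at. Probes of the _s_at kind are shared between transcripts that need not be of 1 gene. The 6 were those of trx, Utx, brm, Trl, lolal and psq.

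Drosophila melanogaster eye-antennal discs, taken from wandering larvae of the last instar, were measured on 8 Affymetrix arrays, 2 biological replicates for each of 4 genotypes, with 100 pairs of discs in each sample. All larvae carried ey-GAL4, which drives UAS transgenes from the eyeless enhancer, an enhancer of the eye primordium. Control larvae (lacZ) had 2 UAS-lacZ transgenes and no other. In the vg and simj groups 1 of these was replaced by UAS-vg or UAS-simj, and vg_simj larvae had UAS-vg together with UAS-simj. The gene vg (vestigial) encodes a wing-selecting cofactor, and simj (simjang) a subunit of the NuRD remodelling complex. The number of UAS-lacZ transgenes thus went down from 2 to 1 and, in vg_simj, 0, which cannot be told apart from the genotype. Whole discs were taken, so each sample mixes driver-positive cells with the other cells of the disc, and in such bulk RNA fewer cells of a type and less RNA per cell cannot be told apart.

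The transgenes themselves were seen on the arrays. The vg signal was 29.4 and 28 in lacZ, 16.6 and 22.2 in simj, 233.9 and 258.8 in vg, with 401.1 and 432.1 in vg_simj. The simj signal was 478.6 to 727.4 on the 4 arrays without UAS-simj and 911.8 to 1260 on the 4 with it, a log2 difference of 0.80 ± 0.15 (SE; limma, adjusted p = 0.0401) that lost its call when any array but lacZ replicate 2 was left out. Markers of the labelled tissue were present, with 9 of 9 eye and 4 of 4 measured antennal disc markers past the filter, but so were markers of tissues the label does not name, with 8 of 8 measured ring gland, 10 of 10 haemocyte and 3 of 3 measured muscle markers past it. The summed eye marker signal was 17086 and 17419 in lacZ, 15747 and 16952 in vg, 10390 and 9689 in simj, with 11660 and 14866 in vg_simj. The summed signal of the 10 salivary gland markers, of which 9 passed the filter, was 180 and 243 in lacZ and 5805 and 872 in vg. It was 2891 and 2755 in simj and 15181 and 1823 in vg_simj. The summed ring gland signal was 18177 to 31034 on the 4 arrays without vg and 2288 to 5635 on the 4 with it, and 7 of 8 ring gland markers fell in the mean effect of vg (median -2.51 on the log2 scale). The summed haemocyte signal was 6796 to 12401 without vg and 1695 to 3972 with it. In the mean effect of vg 9 of 10 haemocyte markers were below 0, with 7 called lower (median -1.68).

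None of the 27 genes was called in any of the 8 comparisons made: the 3 transgene groups against lacZ, vg_simj against vg and against simj, the interaction of vg and simj, and the mean effects of vg and of simj over both backgrounds (4 arrays with the transgene against 4 without). A call is an adjusted p under 0.05 in limma, with Benjamini-Hochberg adjustment over all 10205 probe sets. The shares called among all probe sets were 0.774% for vg against lacZ, 0.412% for simj against lacZ, 3.33% for vg_simj against lacZ, 0.921% for vg_simj against vg, 1.30% for vg_simj against simj, 0.0490% for the interaction, 3.66% for the vg mean effect and 2.18% for the simj mean effect, so a count of 0 among 27 genes is near the background. The genes' highest signal was 1.18 times (Sfmbt) to 2.19 times (kis) their lowest over all 8 arrays, with a median of 1.44 times.

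The count of 0 is bounded by the spread of 2 arrays a group. To be called, a gene with the median standard error of these 27 would have needed a log2 difference of 1.15 in simj against lacZ, 1.04 in vg against lacZ and 0.83 in vg_simj against lacZ, 0.58 for the vg mean effect, but 2.46 for the interaction, whose count of 0 therefore says the least. The 95% intervals of single genes, which are not adjusted for their number, bound what could have been missed. They lay within a 2-fold change for 27 of 27 genes in vg against lacZ, simj against lacZ, vg_simj against simj and both mean effects, for 26 in vg_simj against lacZ, for 25 in vg_simj against vg and for 22 in the interaction.

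**Figure D1:**
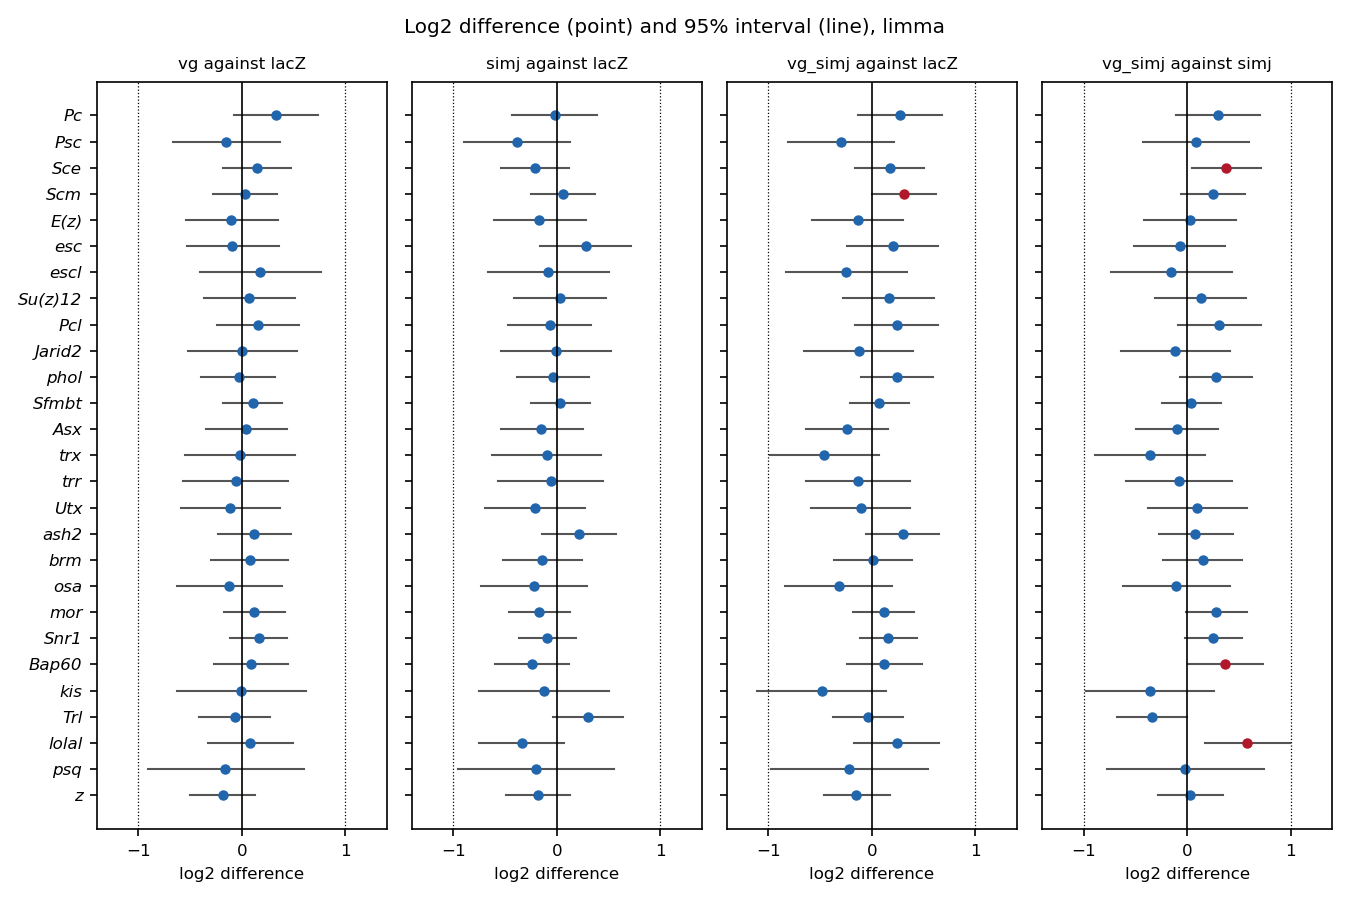
Log2 difference (point) and 95% interval (line) of each of the 27 genes in 4 comparisons, from limma on log2(signal + 2.8), with dotted lines at a 2-fold change. Red points have an unadjusted p under 0.05; none passed after adjustment, and the interval of lolal in vg_simj against simj reached 0.99.

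Of the 4 measured PRC1 genes, 3 had a vg mean effect above 0 and 1 below, and none passed. Over all probe sets 46.2% were below 0. In the same comparison most ring gland and haemocyte markers fell, and the part of those tissues in the gene values was not tested. Sce, the ubiquitin ligase of PRC1, had signals of 583.8 and 651.2 in lacZ, 628.3 and 741.4 in vg, 516.2 and 547.1 in simj, with 695.5 and 693.3 in vg_simj. Both vg_simj arrays stood above both lacZ and both simj arrays, whereas vg and lacZ overlapped. The log2 difference was 0.38 ± 0.14 in vg_simj against simj (limma, adjusted p = 0.233) and 0.27 ± 0.10 for the vg mean effect (limma, adjusted p = 0.184). Pc, the chromodomain protein that reads methylated histone H3, gave 385.7 and 340.2 in lacZ, 384.8 and 330.5 in simj, 428.8 and 483.8 in vg, with 393.7 and 488 in vg_simj. All 4 arrays with vg were above all 4 without it for Pc, by a log2 value of 0.31 ± 0.12 (limma, adjusted p = 0.202), and arrays did not overlap in this direction for 6.05% of all probe sets. Scm, a SAM-domain protein that links PRC1 to other complexes, was highest in vg_simj, at 1612 and 1873, against 1356 and 1443 in lacZ, 1350 and 1514 in vg and 1540 and 1385 in simj. Its log2 difference from lacZ was 0.31 ± 0.13 (limma, adjusted p = 0.320).

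Psc, a RING-finger core subunit of PRC1, did not share this order. It gave 443.5 and 323.7 in lacZ, 355.7 and 328.1 in vg, 276.9 and 302.4 in simj, with 260.5 and 362.4 in vg_simj, so that the lacZ replicates and the vg_simj replicates each lay far apart. Its value in simj against lacZ was -0.39 ± 0.22 (limma, adjusted p = 0.714), the lowest of the 27 in that comparison. The median over the 4 measured PRC1 genes was 0.20 for the vg mean effect and 0.27 in vg_simj against simj, beside 0.03 and 0.05 over all probe sets.

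The 6 PRC2 genes spread to both sides of 0. E(z), the methyltransferase of the complex, lay at 470 ± 65.1 (SD, n = 2) in lacZ, 440 ± 58.2 in vg, 417 ± 17.5 in simj, with 428 ± 79.9 in vg_simj, a range of group means of 0.17 log2 units against a replicate SD of 0.19. Su(z)12, its core partner, ranged from 1473 to 2103 with its lowest array in vg and its highest in vg_simj, and Jarid2, an accessory subunit, ranged from 810 to 1160, both ends of which were lacZ arrays. Pcl, a subunit that anchors PRC2 to chromatin, was at 794 ± 102, 882 ± 47.6, 751 ± 30.5 and 942 ± 190 for lacZ, vg, simj and vg_simj.

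The WD-repeat subunits esc and escl, paralogs that can replace each other in PRC2, had opposite signs in most comparisons without either passing. The esc signal was 504 and 362.8 in lacZ, 426.9 and 380.1 in vg, 482.5 and 557.4 in simj, with 475.2 and 511 in vg_simj. The simj mean effect of esc, 0.28 ± 0.13, was the one with the smallest p among the 27 for that comparison (limma, adjusted p = 0.444). The escl signal was 244.1 and 173.7 in lacZ, 244.7 and 223.3 in vg, 168.2 and 222.2 in simj, with 198.1 and 151.2 in vg_simj, a simj mean effect of -0.26 ± 0.18 (adjusted p = 0.628). The difference between the paralogs was not tested, and each had overlapping arrays with and without simj.

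Of the DNA-binding complex PhoRC, phol, which binds Polycomb response elements as its paralog pho does, had 1325 and 1272 in lacZ, 1148 and 1402 in vg, 1148 and 1386 in simj, with 1617 and 1453 in vg_simj. Both vg_simj arrays exceeded the 6 others, and the largest difference, 0.28 ± 0.15 against simj, did not pass (limma, adjusted p = 0.390). Sfmbt, the other PhoRC subunit, was the steadiest of all 27, from 1304 to 1535. Asx, the cofactor of the PR-DUB deubiquitinase, had 1238 and 1162 in lacZ, 1138 and 1346 in vg, 1219 and 961.7 in simj, with 917.5 and 1118 in vg_simj, with both vg_simj arrays below both lacZ and both vg arrays (-0.29 ± 0.17 against vg, adjusted p = 0.675).

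**Figure D2:**
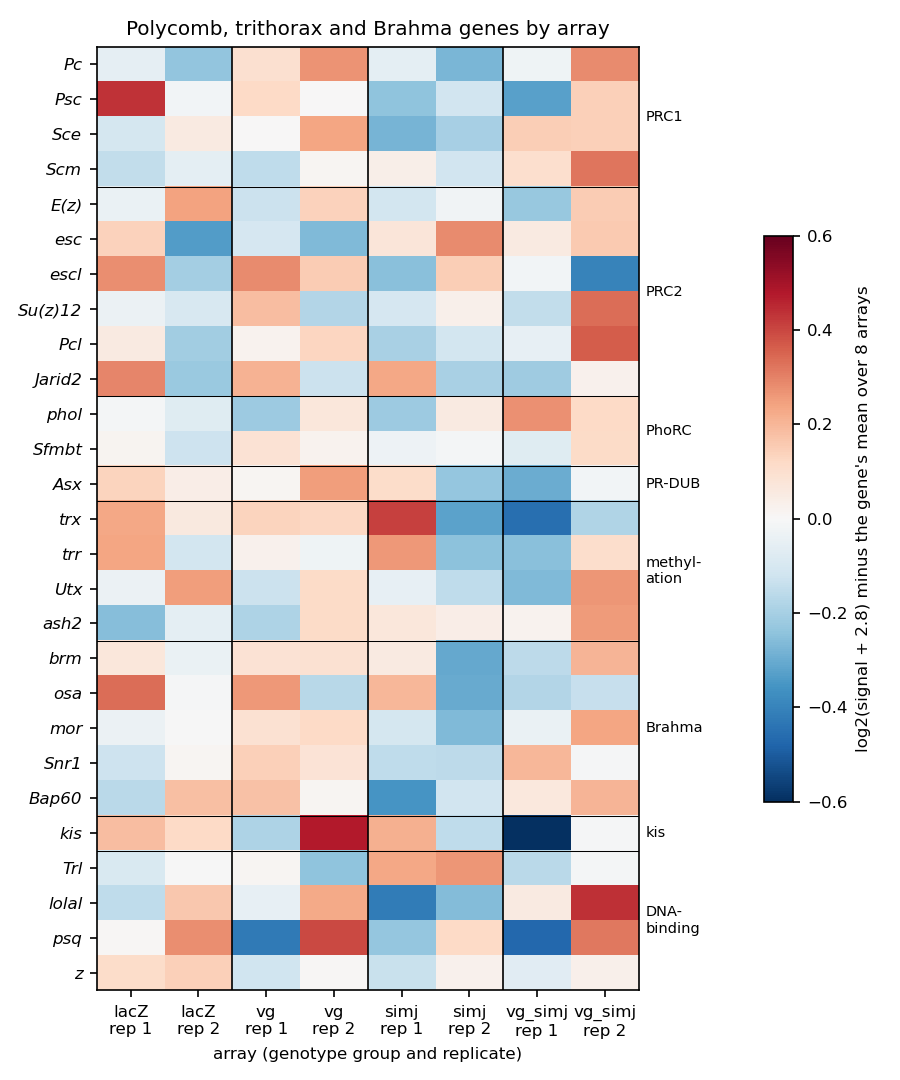
Deviation of log2(signal + 2.8) from each gene's mean over the 8 arrays, with the 27 genes in rows grouped by complex and the arrays in columns grouped by genotype. Colours often differ between the 2 replicates of a genotype, as in vg_simj, where 8 of 27 genes lay above their own mean on replicate 1 and 20 of 27 on replicate 2.

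Among the histone-modifying trithorax genes, trx, the founding methyltransferase of the group, showed the clearest replicate problem. Its signals were 1414 and 1255 in lacZ, 1321 and 1314 in vg, 1602 and 963.9 in simj, with 880.3 and 1062 in vg_simj. Both vg_simj arrays were below both lacZ and both vg arrays, while the simj replicates reached from the highest of the 8 values to near the lowest. The value was -0.46 ± 0.23 in vg_simj against lacZ (limma, adjusted p = 0.410). The related methyltransferase trr, which acts at enhancers, had 621.9 and 487.8 in lacZ, 537 and 517.6 in vg, 630.5 and 442.8 in simj, with 442.7 and 566.6 in vg_simj, with overlap between all groups. A dimmer trr probe set gave -0.50 ± 0.36 in vg against lacZ, where the main one gave -0.06 ± 0.22, and neither passed.

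Utx, the demethylase that removes the PRC2 mark, had group means between 580 and 672. The COMPASS subunit gene ash2 had 919.7 and 1055 in lacZ, 967.5 and 1189 in vg, 1152 and 1132 in simj, with 1116 and 1313 in vg_simj. Both simj and both vg_simj arrays were above both lacZ arrays, by 0.21 ± 0.15 and 0.30 ± 0.15 (limma, adjusted p = 0.769 and adjusted p = 0.439).

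The 5 measured genes of the Brahma complex all had lower means in simj than in lacZ, from -0.10 to -0.24, and none passed the test. Their median was -0.17, beside -0.04 over all probe sets, of which 55.9% were below 0. Snr1, the SNF5-type core subunit, had 2467 and 2712 in lacZ, 2965 and 2841 in vg, 2418 and 2411 in simj, with 3088 and 2673 in vg_simj. Both simj arrays were the lowest of the 8. Bap60, an accessory subunit, had 2058 and 2613 in lacZ, 2604 and 2327 in vg, 1804 and 2125 in simj, with 2406 and 2652 in vg_simj, with 1 lacZ array below 1 simj array. The vg mean effect of Snr1 was 0.21 ± 0.08 (limma, adjusted p = 0.206), and Bap60 in vg_simj against simj was at 0.37 ± 0.16 (limma, adjusted p = 0.286).

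The scaffold subunit gene mor had means of 3054 ± 51.6, 3328 ± 46.2, 2726 ± 217 and 3331 ± 447 (SD, n = 2) for lacZ, vg, simj and vg_simj, and the ATPase gene brm 4115 ± 218, 4333 ± 5.09, 3766 ± 663 and 4169 ± 736. For osa, whose ARID protein marks one form of the complex, the range was 642.7 to 1004 and the vg_simj arrays, at 702.5 and 720.4, were below both lacZ arrays. Without simj replicate 2, the array with the lowest brm, osa and mor signals of all 8, 3 of the 5 genes were below 0 in simj against lacZ in place of 5. In the simj mean effect the 5 stayed below 0 in each of the 18 alternatives run, which reuse the same 8 arrays. The median was -0.10 in the fit reported, beside -0.01 over all probe sets, of which 52% were below 0. With vg present the genes hardly differed: in vg_simj against vg the median was -0.01 (4 below 0 and 1 above), beside 0.01 over all probe sets. In vg_simj against lacZ 4 of the 5 were above 0 and 1 below, with a median of 0.12 beside 0.00.

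The chromatin remodeller gene kis, of the CHD family, had the highest ratio of highest to lowest signal among the 27, at 2.19. Its signals were 4120 and 3938 in lacZ, 3190 and 5048 in vg, 4200 and 3255 in simj, with 2305 and 3602 in vg_simj. Both vg_simj arrays lay below both lacZ arrays (-0.48 ± 0.27; limma, adjusted p = 0.474), but the vg replicates took in all lacZ and simj values.

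The 4 genes of DNA-binding and BTB-domain proteins held the largest difference of all. The gene lolal (lola-like) encodes a short BTB protein that binds the GAGA factor. It had 3710 and 4603 in lacZ, 3986 and 4816 in vg, 3080 and 3444 in simj, with 4274 and 5586 in vg_simj. The simj arrays were the 2 lowest of the 8, and the vg_simj arrays were above them with no overlap. Against simj, lolal in vg_simj was higher by 0.58 ± 0.18 on the log2 scale (95% interval 0.17 to 0.99; limma, adjusted p = 0.175), which did not pass. Ring gland and haemocyte signal was also lower in vg_simj than in simj, and whether it bears on the lolal value was not tested. Its interaction of 0.50 ± 0.25 did not pass either (limma, adjusted p = 0.995).

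Trl, which encodes the GAGA factor itself, ran the other way. Its signals of 641.2 and 656.7 in simj were above 512 and 544.2 in lacZ, 549.1 and 461.4 in vg and 487.3 and 540.3 in vg_simj. Although no other array reached the simj values, the differences of 0.30 ± 0.15 from lacZ and -0.34 ± 0.15 in vg_simj against simj did not pass (limma, adjusted p = 0.670 and adjusted p = 0.295). The GAGA-binding protein gene psq varied more between replicates than between genotypes. It had 1164 and 1406 in lacZ, 862.9 and 1521 in vg, 985.1 and 1256 in simj, with 835.1 and 1443 in vg_simj. For z (zeste), whose protein takes part in pairing-dependent expression, both lacZ arrays, at 671.3 and 686.6, were above the 6 others, which ran from 566.2 to 635. Its differences from lacZ were -0.15 to -0.18 and had no call.

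**Figure D3:**
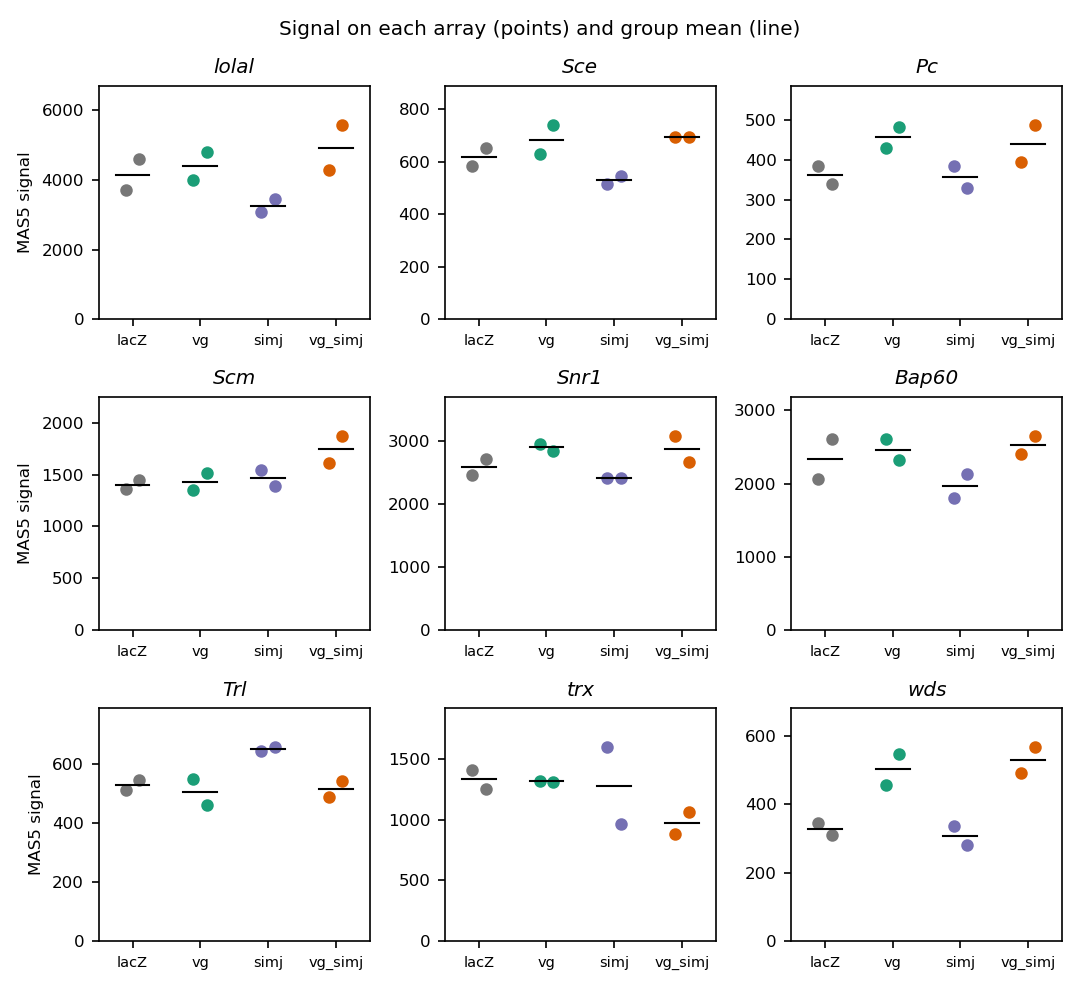
MAS5 signal on each array (points, 2 per genotype) and group mean (line) for 8 of the 27 genes and for wds, a COMPASS gene outside the list, with axes starting at 0. The simj points of lolal, Sce and Snr1 are the lowest and those of Trl the highest of their panels, and all 4 wds points with vg are above the 4 without.

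Set side by side, the comparisons differed in sign more than in calls. In simj against lacZ 21 of 27 genes were below 0 (77.8%, beside 55.9% of all probe sets), with a median of -0.10 beside -0.04. This number was 14 without simj replicate 2. In vg against lacZ 15 were above 0 and 12 below (median 0.03), in vg_simj against lacZ 14 and 13 (0.01), and in vg_simj against simj 17 and 10 (0.08). The comparison of vg_simj with vg, at 12 above and 15 below, turned on 1 array, with 7 below without vg_simj replicate 1 and 21 below without vg_simj replicate 2. These 2 arrays also differed in summed salivary gland marker signal, 15181 against 1823, and in summed eye marker signal, 11660 against 14866. The part of these tissues in the gene values was not tested. Nor was that of the lower eye marker signal in simj, or of the ring gland and haemocyte markers in the comparisons that add vg. All 9 eye markers were below 0 in simj against lacZ, with 1 called. In the simj mean effect all 9 were below 0 as well, with 6 called lower. The comparisons that use simj share their simj arrays, so the low simj values enter several of them.

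By group means, simj was the lowest of the 4 genotypes for 12 of the 27 genes and the highest for 2, while over all probe sets simj was lowest for 34.0% and highest for 23.9%. The lacZ group was highest for 9, vg for 8 and vg_simj for 8, beside 21.4%, 26% and 28.6% of all probe sets. The range of the 4 group means had a median of 0.30 log2 units over the 27 genes, beside a replicate SD of 0.18, and 0.41 beside 0.21 over all probe sets.

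Counts of genes whose arrays did not overlap between groups were read against the shares of all probe sets. In simj against lacZ 2 genes were higher and 7 lower without overlap, beside 16.0% and 24.1%. In vg_simj against simj 9 were higher and 1 lower, beside 27.2% and 22.2%. In vg against lacZ the counts were 5 and 1 (20.0% and 19.4%), in vg_simj against lacZ 5 and 5 (21.4% and 20.9%), and in vg_simj against vg 3 and 3 (18.9% and 17.6%). With 4 arrays against 4 they were 1 and 0 for vg (6.05% and 5.66%), the 1 being Pc, and 0 and 0 for simj (2.25% and 4.25%). At an unadjusted p under 0.05 in limma, 3 of 27 genes differed in vg_simj against simj (lolal, Sce and Bap60, beside 17.1% of all probe sets), 4 in the vg mean effect (lolal, Sce, Pc and Snr1, beside 21.4%) and 1 in vg_simj against lacZ (Scm, beside 15.4%), all of them higher. The count was 0 in vg against lacZ (10.1%), simj against lacZ (8.17%), vg_simj against vg (9.58%), the interaction (3.96%) and the simj mean effect (12.8%).

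**Figure D4:**
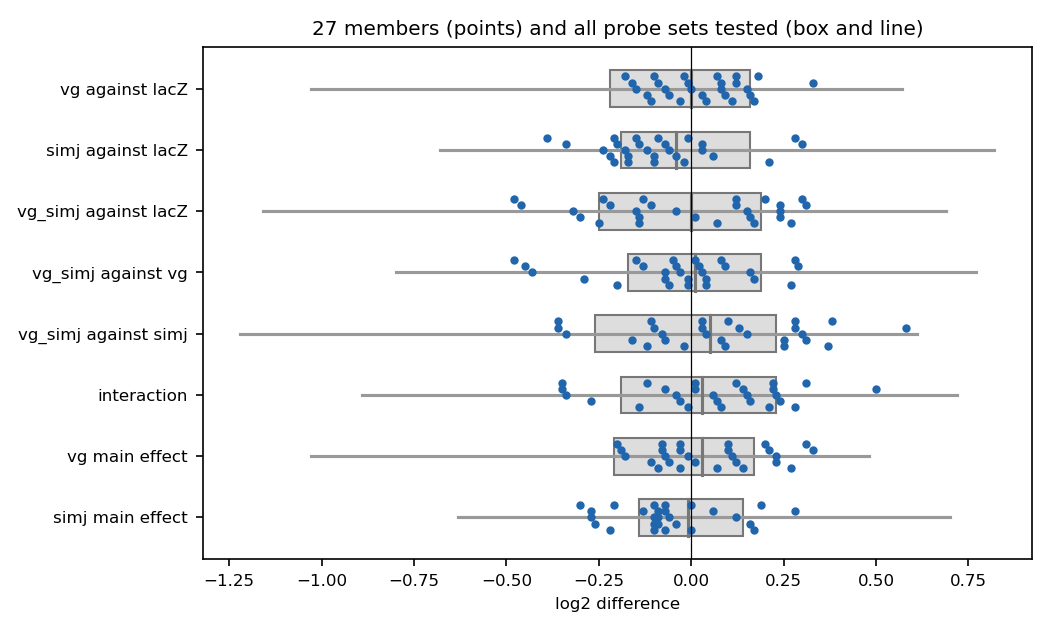
Log2 differences of the 27 genes (points) in the 8 comparisons, over the middle 50% (box) and the 5th to 95th percentiles (line) of all 10205 probe sets. No gene lay outside the 5th to 95th percentiles in any comparison, and lolal came nearest at 0.58 in vg_simj against simj.

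Other genes of the same complexes, each read only from its brightest probe set, gave 1 call. The gene wds encodes a WD-repeat subunit that COMPASS methyltransferases share with other chromatin complexes, and it rose with vg. Its signals were 345.7 and 311.1 in lacZ and 336.9 and 280.1 in simj, but 457.7 and 547.6 in vg and 491.1 and 567.9 in vg_simj. All 4 arrays with vg were above all 4 without, and the vg mean effect was 0.69 ± 0.12 on the log2 scale (limma, adjusted p = 0.0251). Neither pairwise comparison passed, with 0.61 ± 0.18 in vg against lacZ (limma, adjusted p = 0.262). The value against simj was 0.78 ± 0.18 for vg_simj (adjusted p = 0.0941). In the vg mean effect 7 of 8 ring gland and 7 of 10 haemocyte markers were called lower, and their part in the wds difference was not tested. The call was lost in 6 of the 8 fits that left out 1 array, where the effect was 0.63 to 0.74, and without the intensity trend. The 1 gene called higher of 16 measured further trithorax group and COMPASS genes was wds, beside 0.970% of all probe sets. In the same vg mean effect none was called lower, and 5 of the 16 were below 0. Dimmer probe sets of these genes are not covered by the counts. For mod(mdg4), which has 22 probe sets, 2 dimmer ones are given, picked after their values were seen. The first had 253.9 and 154.1 in lacZ and 25.4 and 2.9 in vg_simj. The second went the other way, with 195.2 and 183.4 in lacZ and 255.5 and 340.9 in vg_simj.

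Of 9 further Polycomb group genes none passed in any comparison. The gene corto, whose chromodomain protein interacts with both groups, had 5278 and 7297 in vg against 4804 and 4544 in lacZ, 4048 and 3920 in simj and 5306 and 4541 in vg_simj, a vg mean effect of 0.36 ± 0.12 (limma, adjusted p = 0.138). RYBP, a PRC1 partner, had its highest array, 662.3, in vg. None of 6 further Brahma complex genes passed: the bromodomain subunit gene Brd7-9 had 392 and 365.1 in simj against 448.8 to 539.5 on the 6 other arrays, and BCL7-like had 1474 and 1539 in simj against 1647 to 1979. Of the 4 measured NuRD genes beside simj none passed, with the deacetylase gene HDAC1 at 2264 and 2326 in simj, below the 6 others, and the ATPase gene Mi-2 at 1836 to 2460 over all arrays. The simj group had the lowest mean for 34% of all probe sets. No share of all probe sets is given for 2 arrays that stand apart from the 6 others.

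**Figure D5:**
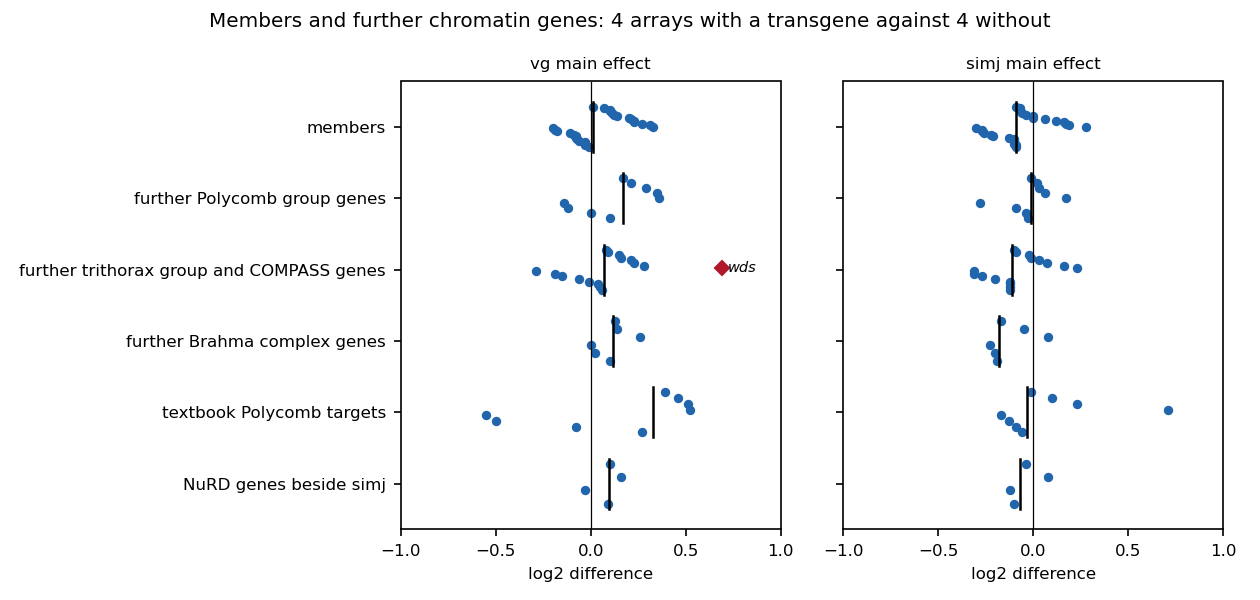
Log2 differences for the mean effects of vg (left) and simj (right), with 1 point per gene and a vertical line at each list's median, for the 27 genes and 5 further lists. The 1 called gene, wds, is the red diamond at 0.69, and the other points are blue.

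Known Polycomb targets were read from 15 genes, of which 10 had a probe set and 8 passed the filter. The Hox gene Antp, with signals of 15.9 to 37, and upd2, a JAK-STAT ligand gene, at 2.6 to 15.8, stayed under it. None of the 8 was called in any comparison. Scr, the Hox gene of the labial and first thoracic segments, had 472.4 and 479.1 in vg against 307 and 209.1 in lacZ, 374.3 and 272.9 in simj and 370.3 and 328.7 in vg_simj. Both vg arrays were the highest of the 8 for Scr, at 0.90 ± 0.23 over lacZ (limma, adjusted p = 0.187). The zinc-finger homeobox gene zfh1 had 277.8 and 392.4 in vg_simj, below all other arrays, which ran from 457.7 to 751.3. Its difference in vg_simj against simj was -1.06 ± 0.21 (limma, adjusted p = 0.0702). The median over the 8 targets was 0.22, 0.17 and 0.29 in vg, simj and vg_simj against lacZ, beside -0.00, -0.04 and 0.00 over all probe sets. The targets did not share 1 sign. In vg against lacZ 4 were above 0 and 4 below, in simj against lacZ 5 and 3, and in vg_simj against lacZ 6 and 2.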

How the data were processed

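Total RNA of 8 samples was measured by in vitro transcription labelling of 100 ng RNA. The values are linear intensity values, deposited by the authors as MAS5 signals for each probe set, per the submitters' processing notes; its version is not stated there. Every array had a mean of 500 after trimming both tails by 2%, so each had been scaled by 1 factor. Detection calls were not used here. Of 18952 probe sets, 183 controls were left out of tests, and a probe set was named only where the platform annotation gave 1 symbol (13647), updated through the RefSeq gene table. Tests took in probe sets brighter than the median of the array on 2 or more arrays.

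The pseudocount 2.8, added before log2, was the 10th percentile of all signals and understates changes of dim genes. A model with 1 mean per genotype was fitted to the 8 arrays by limma 3.58.1 under R 4.3.3 (eBayes with an intensity trend; 4 residual and 3.84 prior degrees of freedom; two-sided). With 2 arrays against 2, the smallest p of an exact permutation test is 0.333, so the tests depend on the spread that limma pools over genes. The number of arrays limits the precision. The labels call the replicates biological without naming separate crosses, so p-values measure only the spread between these samples.

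The genes and lists were chosen with earlier results of these data known. Each gene is named; per-array values are given for those among the 3 smallest p of a comparison and for paralog pairs, and levels or ranges for the rest. The array values of kis and psq were added after their values were seen. From further lists the called genes, or the 2 with the smallest p, are named. Antp and upd2 were named after their values were seen. The alternatives were 3 other pseudocounts, 2 other filters, 2 normalizations, no trend, the replicate block, only the groups compared, 1 probe set per gene, another probe set, and each array left out.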

Additional observations from a re-analysis of the deposited data

How the results depend on the processing

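The count of called genes among the 27 was 0 in all 8 comparisons under each alternative run, leaving out each array included (range 0 to 0), with 1 exception. With the replicate number as a block, lolal was called in vg_simj against simj (count 1; 0.58, limma, adjusted p = 0.0455) and for the vg mean effect (count 1; 0.33, just past the threshold), while calls over all probe sets went from 133 to 213 and from 374 to 630. Deviations of same-numbered arrays from their group means correlated at 0.06 to 0.40 over probe sets, above 0 for each of the 6 pairs of groups, a hint from the data only, since 2 of the 6 were under 0.1 and the labels state no shared batch. The lolal signal was itself higher on replicate 2 than on replicate 1 in every genotype. Over all alternatives the lolal difference ran from 0.39 to 0.78 in vg_simj against simj. The medians of the 27 genes moved by less than the replicate SD, but that of vg_simj against simj went from 0.08 to -0.05 without vg_simj replicate 2; the cause was not tested. The stricter filter tested 22 of the 27 genes. Of the named genes outside the list, zfh1 was called in vg_simj against simj under 2 alternatives, and in vg_simj against lacZ and for the vg mean effect under 1 each, and corto for the vg mean effect with 1 array left out. The simj call was lost in 7 fits that left out 1 array and without the intensity trend.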

Other observations

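Among the 8 measured Polycomb targets, 3 further genes are given, chosen after their values were seen. Each had arrays that did not overlap in some comparison and no call, which also held for en and pb. Shares of all probe sets higher without overlap were 16.0% (simj against lacZ), 20.0% (vg against lacZ) and 6.05% (vg mean effect). The BTB zinc-finger gene chinmo had 948.6 and 1068 in simj against 719.7 and 345.6 in lacZ (1.01 ± 0.33; limma, adjusted p = 0.423), and another chinmo probe set had 673 and 891.5 against 441.6 and 279.3. The JAK-STAT ligand gene upd1 had 60.9 and 53.6 in lacZ against 73.8 to 125.3 on the 6 other arrays (0.97 ± 0.31 in vg against lacZ, adjusted p = 0.322). The posterior compartment gene inv had 439.9 and 331.5 in vg and 316.9 and 389.5 in vg_simj, above the 4 arrays without vg at 237.9 to 310.3 (vg mean effect 0.46 ± 0.15, adjusted p = 0.140).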
